A study of Homo sapiens with 40 samples.

Results

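The UGT2B androgen glucuronidation enzymes examined here are UGT2B17, UGT2B15, UGT2B28 and UGT2B11. Their probe sets were taken by gene symbol from the platform annotation, which pairs 5 of the 54675 probe sets on the array with 3 of these 4 genes. UGT2B17 has 1 probe set (207245_at), UGT2B15 has 3 (207392_x_at, 216687_x_at and 217175_at) and UGT2B28 has 1 (211682_x_at). UGT2B11 has 0 in that annotation and was not analysed here. The annotation lists a single gene for each of the 5 probe sets and none as shared by family members. The genes are close in sequence, however, and in Affymetrix naming the ending _x_at marks probes that can also bind other transcripts, so the signals of 207392_x_at, 216687_x_at and 211682_x_at may include RNA of a relative. The probe sets 216687_x_at and 217175_at were designed from the same sequence record.

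The 40 arrays all carry RNA of LNCaP, a human prostate carcinoma line whose androgen receptor is active. The 7 resistant clones, numbered 1, 9, 10, 14, 15, 19 and 24, and the 3 control lines, which the labels call sensitive to MDV3100 (enzalutamide, an androgen receptor blocker), were grown in medium with fetal calf serum, seeded for 3 d and then given 10 µM MDV3100 or 0.1% DMSO for 24 h. This gave 14 arrays of resistant clones in MDV3100, 14 of resistant clones in DMSO, 6 of control lines in MDV3100 and 6 of control lines in DMSO, with replicates 1 and 2 for every line and treatment. Control 1 is the line titled D+E-, control 2 is D+R- and control 3 is M+R-, names that the labels leave unexplained. Whether the replicates came from separate cultures is not stated. Except in an alternative named in the processing section, the tests take the line as the unit, so their p-values measure the spread between these lines. Each resistant line is 1 clone, so a clone's own features and resistance cannot be told apart.

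UDP-glucuronosyltransferases of the 2B family sit in the endoplasmic reticulum and attach glucuronic acid to steroids and other lipophilic compounds, which makes them water soluble and ready for export. UGT2B15 and UGT2B17 conjugate dihydrotestosterone and its metabolites and so end the androgen signal inside prostate cells. In LNCaP cells, androgen exposure is known to lower UGT2B15 and UGT2B17, and blocking the androgen receptor is known to lift that repression. UGT2B28 also conjugates steroids, with a narrower range of substrates. In the RefSeq gene order on chromosome 4 the family runs UGT2B17, UGT2B15, UGT2B10, UGT2A3, UGT2B7, UGT2B11, UGT2B28 and UGT2B4.

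The sequence just upstream of UGT2B15 is shown because UGT2B15 was the member with a called response to MDV3100. It is the RefSeq promoter entry of build GRCh38.p14, at chr4:68670653-68670902 on the minus strand, and covers the 250 bases before the annotated start, with motif matches in capitals. Of the 4 members, 2 (UGT2B15 and UGT2B11) had an entry in that promoter table.
UGT2B15 promoter: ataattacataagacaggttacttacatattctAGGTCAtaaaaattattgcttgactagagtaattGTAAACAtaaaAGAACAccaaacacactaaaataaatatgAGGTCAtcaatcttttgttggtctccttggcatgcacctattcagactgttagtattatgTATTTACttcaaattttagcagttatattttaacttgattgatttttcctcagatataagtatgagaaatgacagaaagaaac
Both strands were searched for 5 motifs, and the matches do not overlap each other. The androgen receptor half-site AGAACA matched at positions -172 to -167 from the start and is held by 12.4% of the 35116 promoters in windows of this length. The nuclear receptor half-site AGGTCA matched at -217 to -212 and at -143 to -138 and is held by 12.1% of them. The forkhead motif TGTTTAC matched on the opposite strand at -183 to -177 (2.98% of promoters), and the forkhead variant TATTTAC at -83 to -77 (2.39%). The HNF1 motif, searched as its full inverted repeat, had no match in this window (0.0057% of promoters). These matches are letters in a reference sequence and no binding was measured.

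Values are linear MAS5 signals as deposited, scaled on every array to a 2% trimmed mean of 150. Array medians were 10.7 to 18.4. The luminal prostate markers KLK3 (209.5 to 4548), KLK2 (123.8 to 3412) and KRT18 (1252 to 4744) were bright on all arrays, while the summed signal of 3 leukocyte markers was 1.0 to 10.9 and that of 2 basal markers 1.1 to 29.9. The sum of 4 fibroblast markers was higher, at 71.7 to 355, with COL1A1 at 65.2 to 347.9. That of 3 endothelial markers was 14.3 to 133.2, with VWF at 1.5 to 126.2. Replicates with the same label tended to deviate in opposite directions. Over all probe sets, the deviation of a DMSO array from its group mean correlated at r = 0.435 to 0.852 with the MDV3100 array of the same line and replicate, but at a median of -0.519 (-0.741 to 0.206) with the DMSO array of the same line in the other replicate, and below 0 in 9 of 10 lines. These are correlations across probe sets, which are not independent. Each group holds both replicates, so the deviations include any shift shared by all arrays of a replicate. The part of such a shift in these correlations was not tested. The arrays of clone 1 in replicate 1 and of control 2 in replicate 2 stood apart with low signals of UGT2B17, UGT2B15 and UGT2B28. Groups follow the labels as deposited. Whether labels of lines or classes were exchanged in one of the replicates was not tested, and every difference of clones and control lines depends on them. Main results are therefore given for both replicates together and for each replicate, with the effect of leaving out lines or those pairs where it changes a call.

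UGT2B17 was expressed in every line, with a median signal of 881 over the 20 DMSO arrays, but the replicates of a line often lay far apart. In replicate 1, 6 of 7 clones lay below all control lines in MDV3100 and 5 of 7 in DMSO, while in replicate 2, 6 of 7 lay above all of them in MDV3100 and 3 of 7 in DMSO. The share of all probe sets with such partial splits was not counted. All 7 clones lay below in 4.51% (MDV3100) and 5.4% (DMSO) of the probe sets tested in replicate 1. They lay above in 5.55% (MDV3100) and 4.8% (DMSO) in replicate 2. MDV3100 moved UGT2B17 in no common direction, with a higher signal in 7 of 14 clone pairs and in 4 of 6 control pairs, where a pair is the MDV3100 and DMSO array of the same line and replicate. No difference between the groups passed the test when the replicates were combined.

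In clone 1, the UGT2B17 signal was 33.1 in MDV3100 and 23.3 in DMSO in replicate 1, and 1385 in MDV3100 and 980.2 in DMSO in replicate 2. Clone 1 was the lowest line in replicate 1 in both treatments, and in replicate 2 it lay within the range of the other clones. Clone 9 had 532.6 in MDV3100 and 837 in DMSO in replicate 1, and 800 and 852 in replicate 2. Clone 10 had 525.9 in MDV3100 and 629.5 in DMSO in replicate 1, and 1007 and 929 in replicate 2. Clone 14 had 420.3 in MDV3100 and 529 in DMSO in replicate 1, and 1349 and 984 in replicate 2. Clones 10 and 14 were lower in MDV3100 in replicate 1 and higher in replicate 2. Clone 15 had 376 in MDV3100 and 488 in DMSO in replicate 1, and 1276 and 1335 in replicate 2. Clone 19 had 1023 in MDV3100 and 909.9 in DMSO in replicate 1, and 1444 and 1513 in replicate 2. Clone 24 had 629.9 in MDV3100 and 372 in DMSO in replicate 1, and 1379.5 and 1096 in replicate 2. Of the 7 clones, clones 1 and 24 were higher in MDV3100 in both replicates, and clones 9 and 15 were lower in both.

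In the control lines, control 1 had UGT2B17 signals of 1643 in MDV3100 and 1295 in DMSO in replicate 1, and 908 and 988 in replicate 2. Control 2 had 744 in MDV3100 and 732 in DMSO in replicate 1, and 73.3 and 60.3 in replicate 2. Control 3 had 1021 in MDV3100 and 1254 in DMSO in replicate 1, and 381 and 185.4 in replicate 2. All 3 control lines were lower in replicate 2 than in replicate 1 in both treatments, while all 7 clones were higher in replicate 2 in both treatments. The share of all probe sets with this split was not counted. Over all probe sets, replicates of a line tended to deviate in opposite directions from the means of groups that hold both replicates (median r = -0.519).

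**Figure D1:**
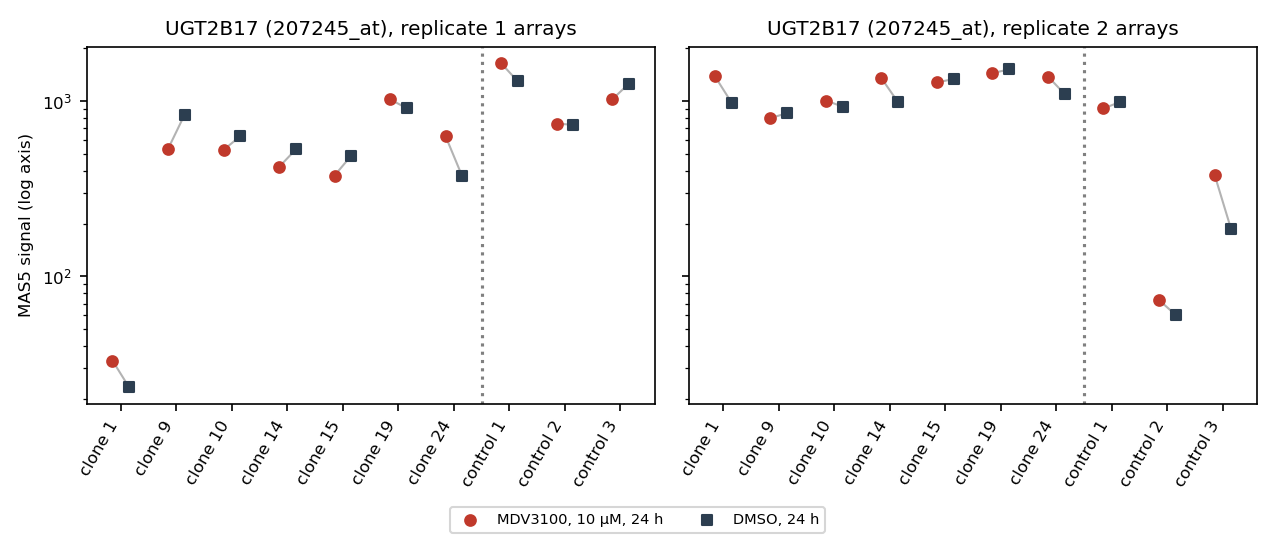
UGT2B17 signal (207245_at, log axis) for each line, with MDV3100 left of DMSO and the replicates drawn separately. Clone 1 in replicate 1 (33.1 in MDV3100, 23.3 in DMSO) and control 2 in replicate 2 (73.3 in MDV3100, 60.3 in DMSO) lie far below the other arrays.

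By the mean log2 signal in DMSO, the lines run from clone 19 through control 1, clone 9, clone 15, clone 10, clone 14, clone 24, control 3 and control 2 to clone 1. For 8 of the 9 neighbours in this order the ranges of the replicates overlap; control 1 and clone 9 are the exception. The gap between the replicates of a line ran from 0.025 to 4.66 on the log2(signal + 16) scale, with a median of 1.15. Across the 20 DMSO arrays the range of UGT2B17 was 5.28 on that scale, and 0.0988% of the 27338 probe sets tested had a larger one. The brightest DMSO array, clone 19 in replicate 2, stood 64.95 times above the dimmest, clone 1 in replicate 1.

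The response of UGT2B17 to MDV3100 was tested with the line as the unit, after averaging its replicates, in limma with Benjamini-Hochberg adjustment over all probe sets tested. All effect sizes are differences of log2(signal + 16), which understate changes of dim probe sets. In the 7 clones the UGT2B17 response was 0.06 ± 0.09 (SE, adjusted p = 0.808 in limma), with -0.05 in replicate 1 and 0.17 in replicate 2. In the 3 control lines it was 0.19 ± 0.14 (adjusted p = 0.426 in limma), with 0.02 in replicate 1 and 0.36 in replicate 2. The responses of clones minus those of control lines differed by -0.13 ± 0.16 (adjusted p = 0.759 in limma), at -0.07 in replicate 1 and -0.20 in replicate 2. The single pairs spread more widely, between -0.64 in clone 9 and 0.73 in clone 24 among the clones of replicate 1, and between -0.09 and 0.49 among those of replicate 2. In the control lines the widest was control 3, at -0.29 in replicate 1 and 0.98 in replicate 2.

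In DMSO, UGT2B17 averaged 541 ± 297 in the clones (SD, n = 7) and 1094 ± 314 in the control lines (SD, n = 3) of replicate 1, and 5 of 7 clones lay below all control lines. In replicate 2 it averaged 1099 ± 240 in the clones (SD, n = 7) and 411 ± 503 in the control lines (SD, n = 3), and 3 of 7 clones lay above all control lines. The log2 difference of clones minus control lines was -1.37 ± 0.78 in replicate 1 (adjusted p = 0.315 in limma) and 2.14 ± 0.55 in replicate 2 (adjusted p = 0.0387 in limma). With the replicates combined it was 0.38 ± 0.50 (adjusted p = 0.678 in limma). The call in replicate 2 was lost when most single lines were left out. Without control 2 the difference was 1.28 (adjusted p = 0.154 in limma) and without control 3 it was 1.98 (adjusted p = 0.165 in limma). Without clone 10, 14, 15, 19 or 24 it was 2.06 to 2.17 (adjusted p = 0.0506 to 0.0727 in limma).

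The same turn was seen in MDV3100. The UGT2B17 difference of clones minus control lines was -1.45 ± 0.68 in replicate 1 (adjusted p = 0.179 in limma), where 6 of 7 clones lay below all control lines, and 1.94 ± 0.51 in replicate 2 (adjusted p = 0.0301 in limma), where 6 of 7 lay above. Combined, it was 0.25 ± 0.45 (adjusted p = 0.776 in limma). In replicate 2 the difference was 1.02 without control 2 (adjusted p = 0.0824 in limma) and 2.10 without control 3 (adjusted p = 0.0748 in limma), and 1.90 to 1.93 without clone 14, 15, 19 or 24 (adjusted p = 0.0543 to 0.057 in limma). In replicate 1, leaving out clone 1 reduced the size of the difference in both treatments, to -0.94 in MDV3100 (adjusted p = 0.087 in limma) and -0.81 in DMSO (adjusted p = 0.0898 in limma).

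UGT2B15, the other main dihydrotestosterone-conjugating enzyme, was the member that rose in MDV3100, and it did so in the control lines. Probe set 207392_x_at was higher in MDV3100 in 6 of 6 control pairs, a pattern shared by 4.45% of all probe sets tested, and in 11 of 14 clone pairs. The response was 0.55 ± 0.10 in the control lines (adjusted p = 0.00388 in limma) and 0.17 ± 0.06 in the clones (adjusted p = 0.24 in limma).

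In control 1, 207392_x_at had 1849.8 in MDV3100 and 1577 in DMSO in replicate 1, and 2141 and 1381 in replicate 2. Control 2 had 1559.5 in MDV3100 and 1239.7 in DMSO in replicate 1, and 185.6 and 109.3 in replicate 2. Control 3 had 2268.5 in MDV3100 and 1654 in DMSO in replicate 1, and 629 and 307 in replicate 2. The rise was present in control 2 of replicate 2 as well, although its signal was far lower there. The log2 responses of the control pairs were 0.23, 0.33 and 0.45 for controls 1, 2 and 3 in replicate 1, and 0.63, 0.69 and 1.00 in replicate 2. In each replicate alone they were not called, with 0.34 in replicate 1 (adjusted p = 0.100 in limma) and 0.77 in replicate 2 (adjusted p = 0.0609 in limma), where the fit without clone 1 called it at the same size (adjusted p = 0.0144 in limma).

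In the clones, the 207392_x_at signal in replicate 1 was 94.6 to 1468 (median 988) in MDV3100 and 74.2 to 1417 (median 849.7) in DMSO. In replicate 2 it was 831 to 1588 (median 1550.1) in MDV3100 and 536 to 1719.6 (median 1463) in DMSO. Clone 1 was lowest in each of these sets, including replicate 2, where it had 831 in MDV3100 and 536 in DMSO. The responses of the clone pairs ran from -0.02 in clone 9 to 0.44 in clone 24 in replicate 1, and from -0.15 in clone 15 to 0.62 in clone 1 in replicate 2. The difference of clone and control responses was -0.38 ± 0.12 (adjusted p = 0.159 in limma), with -0.10 in replicate 1 (adjusted p = 0.765 in limma) and -0.66 in replicate 2 (adjusted p = 0.166 in limma). In replicate 2 without clone 1 it was called at -0.74 (adjusted p = 0.0313 in limma).

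The other UGT2B15 probe sets gave the same sign in the control lines. For 216687_x_at the control signals in MDV3100 and DMSO were 308.8 and 93.9 in control 1, 238.3 and 65.4 in control 2, and 111.8 and 62.6 in control 3 of replicate 1. In replicate 2 they were 113.5 and 74.3 in control 1, 22.3 and 27.4 in control 2, and 52 and 35.4 in control 3. The signal was higher in MDV3100 in 5 of 6 control pairs, with control 2 of replicate 2 as the exception. The response of 216687_x_at was 0.78 ± 0.17 in the control lines (adjusted p = 0.013 in limma), made up of 1.30 in replicate 1 (adjusted p = 0.00489 in limma) and 0.25 in replicate 2 (adjusted p = 0.749 in limma). The call in replicate 1 was lost without control 1, at 1.17 (adjusted p = 0.0928 in limma), and without control 2, at 1.13 (adjusted p = 0.0624 in limma). With both replicates but without control 1 the response was 0.64 and was not called (adjusted p = 0.165 in limma), and with a pseudocount of 1 it was 0.87 and was not called (adjusted p = 0.0572 in limma). In the clones it was 0.27 ± 0.11 (adjusted p = 0.289 in limma), with 9 of 14 pairs higher. The difference of clone and control responses of 216687_x_at was -0.50 ± 0.20 (adjusted p = 0.273 in limma), at -1.07 in replicate 1 (adjusted p = 0.177 in limma) and 0.06 in replicate 2 (adjusted p = 0.971 in limma), and it was called in replicate 1 at -1.37 without control 3 (adjusted p = 0.00681 in limma).

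For 217175_at, designed from the same record, the control signals in MDV3100 and DMSO were 69 and 23.6 in control 1, 36.7 and 23.7 in control 2, and 26 and 25.5 in control 3 of replicate 1. In replicate 2 they were 50.8 and 19.7 in control 1, 5.3 and 4.8 in control 2, and 14.6 and 9.1 in control 3. All 6 control pairs were higher in MDV3100, as in 4.45% of all probe sets tested, most of all in control 1. The rise was only 0.02 in control 3 of replicate 1. It was 0.03 in control 2 of replicate 2, at signals below every array median. The response of 0.46 ± 0.14 missed the threshold (adjusted p = 0.0573 in limma), at 0.51 in replicate 1 (adjusted p = 0.0958 in limma) and 0.41 in replicate 2 (adjusted p = 0.358 in limma). Without control 1 it was 0.19 (adjusted p = 0.524 in limma). It was called at 0.52 without clone 1 of replicate 1 and control 2 of replicate 2 (adjusted p = 0.0293 in limma), at 0.61 without control 3 (adjusted p = 0.0384 in limma), and at the size of the full fit without clone 9 (adjusted p = 0.0491 in limma). With pairs instead of lines as the unit it was also called at that size (adjusted p = 0.0259 in limma). That fit counts the replicates of a line as independent, so its p-value does not measure the spread between lines. In the clones the response of 217175_at was 0.20 ± 0.09 (adjusted p = 0.35 in limma), with 11 of 14 pairs higher.

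UGT2B28 had no called response. In the control lines its signal in MDV3100 and DMSO was 709 and 844 in control 1, 501 and 614 in control 2, and 419.5 and 703 in control 3 of replicate 1. In replicate 2 it was 469 and 941 in control 1, 38.1 and 36.3 in control 2, and 209 and 192 in control 3. The signal was lower in MDV3100 in 4 of 6 control pairs, and the exceptions were controls 2 and 3 of replicate 2. The response of -0.35 ± 0.10 lay just outside the threshold (adjusted p = 0.0571 in limma), at -0.42 in replicate 1 (adjusted p = 0.0798 in limma) and -0.27 in replicate 2 (adjusted p = 0.607 in limma). Without control 1 it was -0.21 (adjusted p = 0.44 in limma). It was called at -0.40 without clone 1 of replicate 1 and control 2 of replicate 2 (adjusted p = 0.0232 in limma), at -0.46 without control 2 altogether (adjusted p = 0.0473 in limma), and, at the same size as in the full fit, without clone 15 (adjusted p = 0.0492 in limma) or clone 24 (adjusted p = 0.0443 in limma).

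In the clones, both the level and the direction of the UGT2B28 response varied with the replicate. In replicate 1 the signal was 15.5 to 682 (median 264.2) in MDV3100 and 18.2 to 867 (median 308) in DMSO, and 2 of 7 clones were higher in MDV3100. In replicate 2 it was 103.6 to 2509 (median 2273) in MDV3100 and 102.7 to 1949.6 (median 1620.5) in DMSO. There 7 of 7 clones were higher in MDV3100, by 0.01 in clone 1 to 0.62 in clone 24. The share of all probe sets with 7 of 7 was not counted. The combined response of UGT2B28 in the clones was 0.12 ± 0.07 (adjusted p = 0.451 in limma), from -0.10 in replicate 1 (adjusted p = 0.655 in limma) and 0.34 in replicate 2 (adjusted p = 0.444 in limma). Clones minus control lines gave a difference of responses of 0.47 ± 0.13, positive in both replicates (0.32 and 0.62) but not called (adjusted p = 0.117 in limma).

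**Figure D2:**
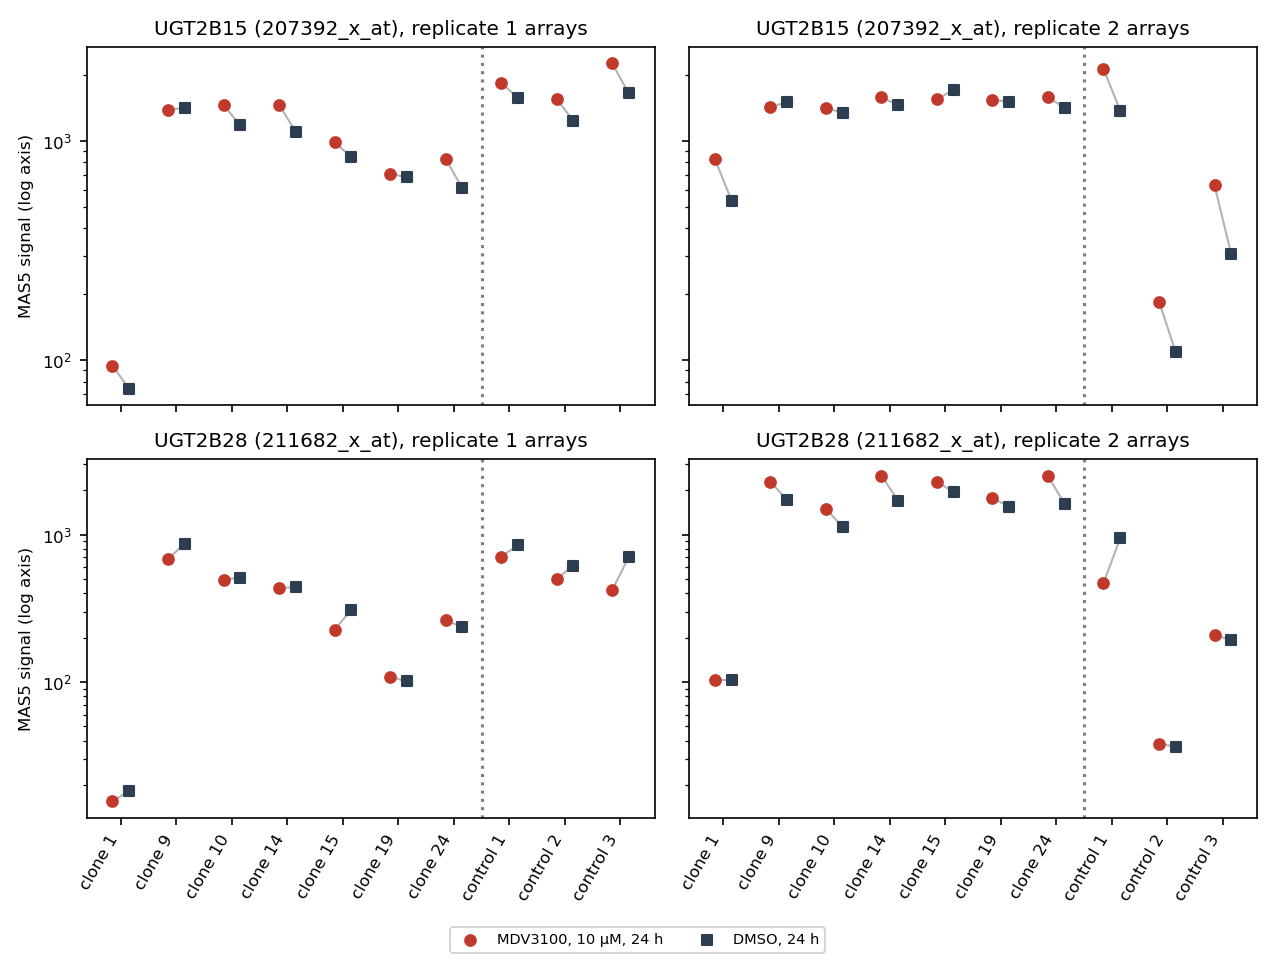
Signals of UGT2B15 (207392_x_at) and UGT2B28 (211682_x_at) on log axes for each line, with MDV3100 left of DMSO and the replicates drawn separately. The UGT2B15 points of the control lines are higher in MDV3100 in 6 of 6 pairs, while those of UGT2B28 are lower in 4 of 6.

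Over the 5 probe sets, 2 were called in the response of the control lines, both higher in MDV3100, where 8.32% of all probe sets tested were called, 4.17% higher and 4.15% lower. Of the 5, 1 was called in replicate 1 alone (background 6.39%) and 0 by limma in replicate 2 alone (background 0.0732%). At an unadjusted p under 0.05 there were 4 of the 5 with both replicates, where 24.3% of all probe sets passed, and 2 of the 5 in replicate 2, where 11.6% passed. In the response of the clones 0 were called by limma (background 0.366%), with 3 at an unadjusted p under 0.05, as were 14.1% of all probe sets. In the difference of responses 0 were called by limma (background 0.435%), with 3 at an unadjusted p under 0.05, again beside 14.1% of all probe sets. The median response of the 5 was 0.46 in the control lines and 0.17 in the clones, against 0.01 and 0.00 over all probe sets tested. The probe sets share transcripts and sequence, so they are not 5 independent readings. In the control lines of replicate 1 the ratio of the 3' to the 5' actin probe set, a measure of RNA integrity and amplification, was 4.26 to 6.59 in MDV3100 and 3.18 to 4.12 in DMSO, widest in control 2 (6.59 in MDV3100 and 3.18 in DMSO). In replicate 2 it was 3.36 to 3.95 in MDV3100 and 3.30 to 3.70 in DMSO, and the part of this ratio in the responses was not tested.

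**Figure D3:**
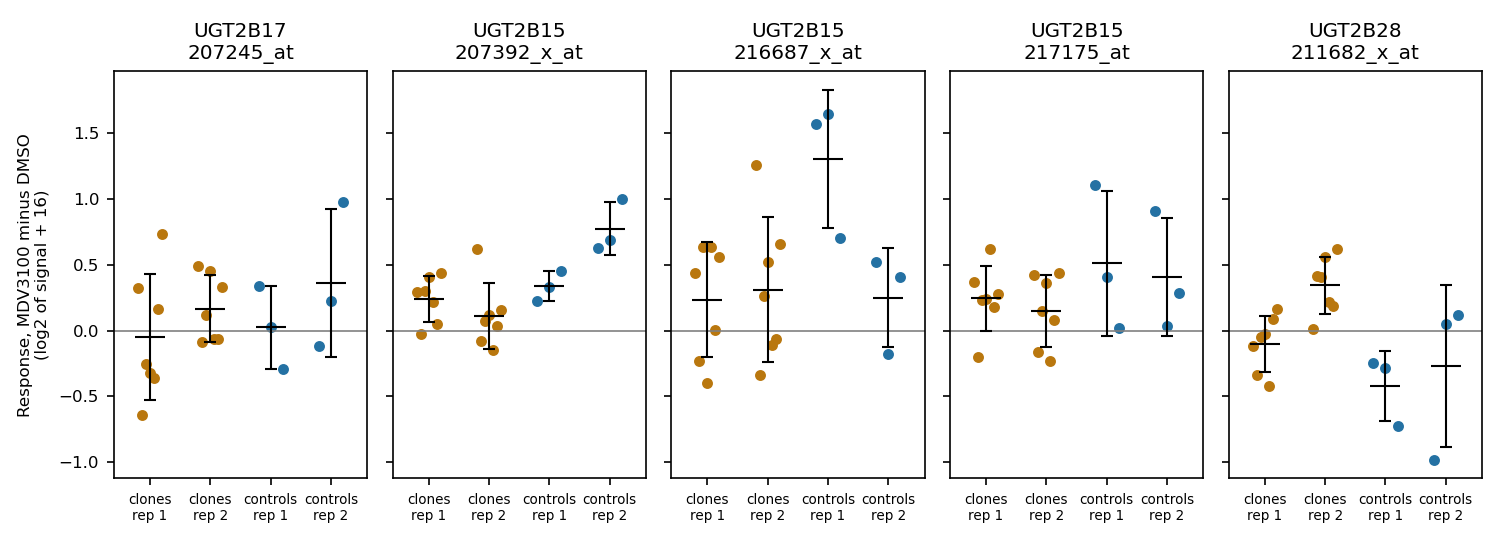
Response to MDV3100 (log2 difference of MDV3100 minus DMSO, on log2(signal + 16)) for each pair and probe set, with clones left of control lines. All 6 control pairs lie above 0 for the UGT2B15 probe sets 207392_x_at and 217175_at, by as little as 0.02 for 217175_at. UGT2B17 and UGT2B28 have pairs on both sides.

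The estimated class difference had opposite signs in the replicates for all 5 probe sets. In DMSO, all 5 were lower in the clones in replicate 1 (median difference -1.14, 0 called and 0 at an unadjusted p under 0.05 in limma, background 4.15%), and all 5 were higher in replicate 2 (median difference 1.77, 2 called, background 9.24%). Combined, 0 were called and 0 had an unadjusted p under 0.05 in limma, where 0.0183% of all probe sets were called. In MDV3100, all 5 were lower in replicate 1 (median -1.24, 1 called, background 7.18%), all 5 were higher in replicate 2 (median 1.11, 2 called, background 16.6%), and combined 0 were called and 0 had an unadjusted p under 0.05 in limma (background 7.84%). The difference between the replicates was not itself tested.

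For UGT2B28, 6 of 7 clones lay above all control lines in replicate 2 in both treatments, and clone 1 was the exception. The share of all probe sets with 6 of 7 was not counted, while all 7 lay above in 5.55% (MDV3100) and 4.8% (DMSO). With both replicates the UGT2B28 log2 difference of clones minus control lines was 0.88 ± 0.75 in MDV3100 (adjusted p = 0.494 in limma) and 0.41 ± 0.75 in DMSO (adjusted p = 0.772 in limma). In DMSO it was -1.52 in replicate 1 (adjusted p = 0.264 in limma) and 2.34 ± 0.91 in replicate 2 (adjusted p = 0.103 in limma). In MDV3100 it was -1.20 in replicate 1 (adjusted p = 0.283 in limma) and 2.96 ± 0.90 in replicate 2 (adjusted p = 0.0446 in limma). Without clone 1 the UGT2B28 difference in replicate 2 was larger, at 3.55 in MDV3100 (adjusted p = 0.000614 in limma) and 2.88 in DMSO (adjusted p = 0.00724 in limma), and without control 2 it was 2.09 in MDV3100 (adjusted p = 0.184 in limma) and 1.31 in DMSO (adjusted p = 0.393 in limma). Of the 10 lines, clone 1 was the one whose removal kept the MDV3100 call in replicate 2. The other fits gave 2.09 to 3.67 (adjusted p = 0.059 to 0.184 in limma). With both replicates, the difference in MDV3100 was called at 1.42 without clone 1 (adjusted p = 0.019 in limma), and it was 0.96 and not called without control 2 as well (adjusted p = 0.0754 in limma).

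For UGT2B15, all 7 clones lay below all 3 control lines in MDV3100 of replicate 1 at 207392_x_at and 216687_x_at, a pattern found in 4.51% of all probe sets tested. The 207392_x_at signals there were 94.6 to 1468 in the clones and 1559.5 to 2268.5 in the control lines, a difference of -1.24 (adjusted p = 0.21 in limma). The 216687_x_at signals were 18.8 to 91.8 in the clones and 111.8 to 308.8 in the control lines, a difference of -1.64 ± 0.32 (adjusted p = 0.0154 in limma). That call was lost without control 1, at -1.35 (adjusted p = 0.101 in limma), and without control 2, at -1.53 (adjusted p = 0.108 in limma). In replicate 2 the 216687_x_at difference in MDV3100 was 1.06 (adjusted p = 0.11 in limma). In DMSO of replicate 2 the 217175_at difference was called at 1.08 ± 0.29 (adjusted p = 0.0425 in limma), and it was not called without control 2, at 0.90 (adjusted p = 0.167 in limma), without control 3, at 1.04 (adjusted p = 0.168 in limma), or without clone 9, 14, 15, 19 or 24, at 0.94 to 1.10 (adjusted p = 0.0522 to 0.0799 in limma).

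**Figure D4:**
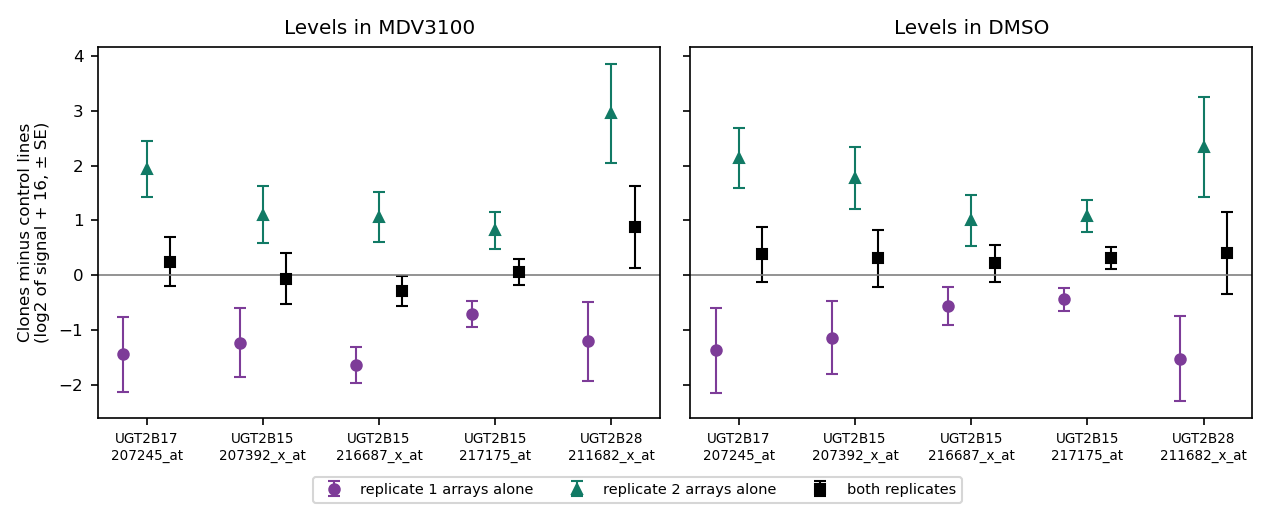
Clones minus control lines (log2 difference ± SE) for each UGT2B probe set, in MDV3100 left of DMSO, from both replicates and from each replicate alone. All 5 probe sets lie below 0 in replicate 1 and above 0 in replicate 2 in both treatments.

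The members did not always move together between lines. Across the 20 DMSO arrays, UGT2B17 correlated at r = 0.941 with UGT2B15 207392_x_at, at 0.743 with 216687_x_at, at 0.787 with 217175_at and at 0.801 with UGT2B28. Without the low arrays of clone 1 in replicate 1 and control 2 in replicate 2 these were 0.775, 0.644, 0.714 and 0.551 over 18 arrays, and cross-binding of probes to relatives was not tested. These arrays include replicates of the same lines, so the correlations are descriptions. Clone 19 in replicate 1 held the 3rd highest UGT2B17 signal of the 10 lines in DMSO (909.9) but the 9th highest UGT2B28 signal (101.2). Clone 1 in replicate 2 had a UGT2B17 signal of 980.2 in DMSO with 102.7 for UGT2B28, the 9th of 10. The range across DMSO arrays was 5.84 for UGT2B28 (0.0402% of probe sets had a larger one) and 4.27 for 207392_x_at (0.241%), against a median of 1.01 over all probe sets tested.

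The 5 other genes most like UGT2B17 over the 20 DMSO arrays were EEF1AKMT1 (r = 0.909), a lysine methyltransferase of a translation elongation factor, HMGB1 (0.868), a chromatin protein, PTPRR (0.864), a tyrosine phosphatase, PRAC1 (0.857), a small nuclear protein of prostate and colon, and PRUNE2 (0.84). In each replicate alone, EEF1AKMT1 correlated with UGT2B17 at 0.991 and 0.976 over 10 arrays, and the others of these genes at 0.762 to 0.951. The genes were picked by r over these same arrays, and each replicate holds a low array. The values in a replicate are therefore no separate check. EEF1AKMT1 had signals of 45.9 in clone 1 of replicate 1 and 62.4 in control 2 of replicate 2, against 113.6 to 291 on the other 18 DMSO arrays. The 3 most opposed were LTN1 (-0.903), a ubiquitin ligase of stalled ribosomes, PACSIN1 (-0.862), an endocytic adaptor, and GUCY1A2 (-0.857), a guanylate cyclase subunit. GUCY1A2 was 293.7 and 288.4 on the same low arrays, against a median of 7.55 and a highest signal of 250.3 on the others. Without these arrays r was 0.765 for EEF1AKMT1, 0.782 for HMGB1, 0.916 for PTPRR, 0.831 for PRAC1 and 0.808 for PRUNE2. It was -0.731 for LTN1, -0.716 for PACSIN1 and -0.639 for GUCY1A2.

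Among 28 other genes of glucuronidation (further transferases, suppliers of the sugar donor, a glucuronidase and exporters of conjugates), 16 had a probe set and 8 passed the filter. In the response of the control lines 1 of these 8 was called, beside 8.32% of all probe sets. It was ABCC4, an exporter of conjugated steroids, which fell by 0.36 ± 0.09 (adjusted p = 0.0292 in limma), with signals of 1273 to 1899 in MDV3100 and 1688.5 to 2266 in DMSO. In the replicates alone ABCC4 was at -0.40 in replicate 1 (adjusted p = 0.0589 in limma) and -0.32 in replicate 2 (adjusted p = 0.316 in limma). In the other 4 comparisons with both replicates limma called 0 of the 8, beside 0.0183% to 7.84% of all probe sets. The list's median response was -0.13 in the control lines and 0.00 in the clones, against 0.01 and 0.00 over all probe sets. UGDH, which makes the sugar donor UDP-glucuronic acid, was lower in the clones in MDV3100 of replicate 1, at -1.02 (adjusted p = 0.0241 in limma), but had a difference of 0.56 in replicate 2 (adjusted p = 0.23 in limma) and -0.23 with both (adjusted p = 0.465 in limma). The glucuronidase GUSB was called lower in the clones in MDV3100 of replicate 2, at -0.74 (adjusted p = 0.0395 in limma). In MDV3100 it was not called in replicate 1 or with both replicates. UGDH and GUSB were each the only call, 1 of the 8, in that comparison. The share of all probe sets called there was 7.18% in replicate 1 and 16.6% in replicate 2.

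Of 39 genes of androgen synthesis and breakdown, 35 had a probe set and 19 passed the filter. In the control lines 1 of the 19 was called in MDV3100, a share below the 8.32% of all probe sets. It was CYP11A1, the enzyme that starts steroid synthesis from cholesterol, at -0.88 ± 0.18 (adjusted p = 0.00819 in limma), with -0.93 in replicate 1 and -0.83 in replicate 2, at signals of 1.0 to 30.1 in MDV3100 and 5.5 to 126.2 in DMSO. In the other 4 comparisons limma called 0 of the 19 with both replicates, beside 0.0183% to 7.84% of all probe sets. AKR1C3, which makes testosterone from androstenedione, was higher in the clones of replicate 1, at 0.88 in MDV3100 (adjusted p = 0.0272 in limma) and 1.09 in DMSO (adjusted p = 0.00135 in limma). Of the 19, limma called 2 higher in MDV3100 of replicate 1 (background 7.18%) and 1 in DMSO (background 4.15%). In replicate 2 the AKR1C3 differences were -0.17 in MDV3100 (adjusted p = 0.625 in limma) and 0.49 in DMSO (adjusted p = 0.179 in limma). With both replicates they were 0.36 in MDV3100 (adjusted p = 0.124 in limma) and 0.79 in DMSO (adjusted p = 0.051 in limma). In MDV3100 of replicate 2, 2 of the 19 were called higher in the clones (CYP11A1 and CYP3A4) and 1 lower (RDH11), beside 16.6% of all probe sets. In DMSO of replicate 2, 1 of the 19 was called higher (HSD17B6), beside 9.24% of all probe sets. These genes were chosen after their values were seen.

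Of 24 androgen targets and regulators, 18 had a probe set and 15 passed the filter. In the control lines 3 rose and 7 fell in MDV3100 (limma), with a median of -0.47, where 8.32% of all probe sets were called. In replicate 1 alone 2 rose and 7 fell (background 6.39%), and in replicate 2 alone 1 rose and 1 fell (background 0.0732%). Those of largest size were TRPM8, an ion channel, at -2.27, OPRK1, an opioid receptor that androgen lowers in LNCaP cells, at 1.79, and KLK2, a secreted protease, at -1.50. In the clones 0 rose and 1 fell (TRPM8, at -0.98, background 0.366%), with a median of -0.10. In replicate 1 alone 2 rose and 1 fell in the clones (background 0.772%), and limma called 0 in replicate 2 alone (background 0.00732%). The difference of responses was called for 3 (background 0.435%), with OPRK1 at -1.57, PMEPA1 at 0.93 and FKBP5 at 0.52. In limma it was called for 1 in replicate 1 alone (background 0.011%) and 0 in replicate 2 alone (background 0%). In MDV3100, 3 were higher in the clones and 1 was lower, with OPRK1 at -2.32, SLC45A3 at 1.07 and NDRG1 at 0.63 the largest (background 7.84%). In replicate 1 alone 0 were called higher and 2 lower there (background 7.18%), and in replicate 2 alone 3 higher and 1 lower (background 16.6%). In DMSO limma called 0 with both replicates (background 0.0183%).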

How the data were processed

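RNA of 40 LNCaP samples was amplified, biotin-labelled and hybridised to Affymetrix arrays, per the labels' protocols. Signal intensity on a linear scale is what the authors deposited for each probe set. The submitters' processing notes name MAS5, with no version in the sources used here. Values were not renormalised. They were converted to log2(signal + 16), and probe sets whose mean over the arrays reached the median of all (log2 4.81, a signal of 12.1) were kept, which left 27338 of 54675, all 5 member probe sets among them. All columns were matched to samples by identifier, and 0 were unmapped. The annotation gave 1 gene for 41097 probe sets, several for 1801 and none for 11777. The number of arrays limits the precision.

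In R 4.3.3, limma 3.58.1 took the line as the unit: the mean over replicates of MDV3100 minus DMSO, or of the level, for 7 clones and 3 control lines with a shared spread. Calls had a Benjamini-Hochberg adjusted p under 0.05 over all probe sets tested. The fits of responses were tried on simulated data, drawn with no shift between replicates and no likeness between the replicates of a line. The fits of levels were not scored there. Figures were drawn with matplotlib 3.10.9 in Python 3.11.15. Arrays were paired by replicate number. Over the 20 pairs the deviations of the DMSO and MDV3100 array from their group means correlated at r = 0.435 to 0.852. Arrays of different lines in the same replicate were not compared, so the pairing itself was not tested.

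The members and the 3 lists (91 genes) were chosen with earlier results of these data known. All member probe sets are named, with the 5 genes highest and the 3 lowest in correlation with UGT2B17 in DMSO and, per list and comparison, up to 3 called genes of largest size. UGDH, GUSB and AKR1C3 in single replicates, and UGT2B4 in the closing section, were chosen after their values were seen. Alternatives were the pseudocount, the filter, quantile normalization, pairs as units, each replicate alone and lines left out. With pairs as units, called the replicate block below, the replicates of a line count as independent. A replicate term entered the fits of levels there, but not those of responses. Leaving out the low pairs, and lines within a replicate, were added after seeing the data.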

Additional observations from a re-analysis of the deposited data

Results flagged for a closer look

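Among 45 sets of member values examined, 9 held a value whose gap to its nearest neighbour was too wide a part of the range by Dixon's criterion. Each of the 9 was a set of 7 clone values of a probe set within 1 replicate, in a treatment or as a response. In all 9 the value belonged to clone 1. Chance marks about 1 in 20 sets, and the sets share arrays. In replicate 1, clone 1 had a UGT2B17 signal of 33.1 in MDV3100 and 23.3 in DMSO. UGT2B15 207392_x_at in the same arrays was 94.6 in MDV3100 and 74.2 in DMSO. In replicate 2, 207392_x_at was again lowest in clone 1, at 831 in MDV3100 and 536 in DMSO, and its log2 response of 0.617 was the highest of the 7 clones. UGT2B28 in clone 1 of replicate 2 was 103.6 in MDV3100 and 102.7 in DMSO, while UGT2B17 on those arrays lay within the range of the other clones. Control 2 of replicate 2 was not assessed this way, since its group holds 3 lines.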

How the results depend on the processing

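The 5 comparisons were repeated under 18 alternatives. The estimates of the members changed with the alternative, and so did the counts of called probe sets. For the response of the control lines (2274 called) they were 1391 without control 2 and clone 1, and 3412 without the 2 low pairs. For the response of the clones (100) they were 45 with a pseudocount of 1, 35 with no filter, 58 without both lines and 45 without the low pairs. For the difference of responses (119) they were 11 with a pseudocount of 1, 13 with no filter, 66 after quantile normalization, 1 with the replicate block and 211 without the low pairs. For clones against control lines in DMSO (5) they were 16 with a pseudocount of 1, 28 with no filter, 567 with the replicate block, 1662 without both lines and 2529 without the low pairs. In MDV3100 (2143) they were 1067 with the replicate block and 3542 without both lines. Leaving out single lines or a replicate gave 20 to 2483, 2 to 220, 0 to 139, 0 to 4807 and 53 to 4631 calls in the same order. UGT2B17 spanned 0.02 to 0.36, -0.050 to 0.17, -0.21 to -0.06, -1.37 to 2.14 and -1.45 to 1.94 over those. Signs turned without both lines for UGT2B17 in the clone response (-0.000103) and in the MDV3100 level (-0.11), and for 217175_at in the MDV3100 level (-0.052; -0.10 without the low pairs). Without the low pairs they turned in DMSO for 207392_x_at (-0.053) and UGT2B28 (-0.060). Leaving out lines or a replicate also turned signs for UGT2B28 in the clone response (-0.10 to 0.34), for 216687_x_at (-1.07 to 0.063) and 217175_at (-0.42 to 0.011) in the difference of responses, and for every member's level. In DMSO the levels of 207392_x_at, 216687_x_at, 217175_at and UGT2B28 spanned -1.14 to 1.77, -0.57 to 1.00, -0.44 to 1.08 and -1.52 to 2.34, and in MDV3100 -1.24 to 1.11, -1.64 to 1.06, -0.71 to 0.82 and -1.20 to 2.96. Within replicate 1, leaving out lines turned UGT2B17 in the response of control lines (-0.13 to 0.18), of clones (-0.18 to 0.048) and their difference (-0.23 to 0.085), and 217175_at in the difference (-0.51 to 0.031). Within replicate 2 it turned UGT2B28 in the response of control lines (-0.47 to 0.082) and, in the difference, UGT2B17 (-0.44 to 0.11) and 216687_x_at (-0.15 to 0.20). The number of lines limits all of these, and the cause of each change was not tested.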

Other observations

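UGT2B4, a family member better known from the liver, lay below the filter on low signals and was chosen after its values were seen. Its probe set 206505_at read 116.4 in MDV3100 and 18.1 in DMSO in clone 14 of replicate 2 (log2 response 1.96), and 143.8 in MDV3100 and 23.2 in DMSO in clone 24 of replicate 2 (2.03). In the other 18 pairs it was 1.5 to 23.7 in MDV3100 and 0.1 to 35.0 in DMSO. The same clones in replicate 1 had 6.2 and 4.6 in MDV3100 and 8.3 and 3.3 in DMSO. These are the clone pairs in which UGT2B28 responded most in replicate 2, at 0.56 in clone 14 and 0.62 in clone 24. Of 4 hepatocyte markers, ALB ranged from 4.5 to 610.8 over the 40 arrays (median 19.35) and TTR from 4.3 to 228 (median 80.45). APOA1 (3.8 to 27.8, median 13.35) and FGB (0.4 to 10.5, median 1.7) were low on all arrays. The summed signal of the 4 was 50.5 to 715.5 in MDV3100 and 50.1 to 508.9 in DMSO in the clones. In the control lines it was 40.5 to 198.7 in MDV3100 and 38.1 to 215.7 in DMSO.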
